A study of Homo sapiens with 6 samples.

Results

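The genes described here are 34 estrogen receptor targets and genes linked to the receptor in luminal breast cells, listed by name from knowledge of the pathway. They were chosen with earlier results of these data known. They were looked up in RNA-seq of 6 libraries labelled T47D, a breast cancer line that carries the estrogen and progesterone receptors. The label gives the genotype as WT, although the paper describes T47D as mutant for the lipid kinase gene PIK3CA. All cultures were kept in RPMI medium with fetal bovine serum. A group of 3 libraries was labelled DMSO for 24 h, and a group of 3 was labelled 4 μmol/L MI-503 for 24 h. MI-503 keeps menin from its partner MLL1, the histone methyltransferase that places methyl marks on lysine 4 of histone H3 at promoters. The comparison describes how these transcripts differ between the libraries labelled MI-503 and those labelled DMSO. All 34 were among the 61279 genes for which reads were summed and among the 16442 genes with enough reads to test.

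The estrogen receptor, encoded by ESR1, is a transcription factor that binds estradiol and then DNA, either at paired inverted GGTCA letters (the estrogen response element) or through other DNA-bound proteins. In luminal breast cells FOXA1 and GATA3 open and co-occupy its sites, and coactivators and corepressors recruited to the bound receptor set transcription of genes such as TFF1, GREB1 and PGR. The products of its target genes range from secreted peptides and ion channels to kinases and chaperones.

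The libraries labelled DMSO went against their cell line label. ESR1 had 4 reads in total over those libraries and 13868 over the libraries labelled MI-503, and GATA3 had 12 and 80635. Of 13 luminal breast markers, the 10 with enough reads to test were all higher with the MI-503 label, against 31.7% of all genes tested. Of these, ESR1, PGR, GATA3, TFAP2B, MUC1 and AGR3 had enough reads only through the MI-503 label, so their calls are not independent of that limit. The summed level of the 13 was 136 to 213 CPM (read counts scaled to library size) with the DMSO label, most of it from MLPH at a mean of 132 CPM, against 8507 to 10693 CPM. TFAP2B and SCGB2A2 had no read with the DMSO label and ANKRD30A had none with the MI-503 label. Of 14 prostate markers, all 14 were lower with the MI-503 label, against 31.2% of all genes tested. Their summed level was 7142 to 9061 CPM with the DMSO label against 183 to 190. KLK2, KLK3, KLK4, HOXB13, ACP3, FOLH1, TRPM8 and PCA3 had enough reads to test only through the DMSO label. Their calls are not independent of that limit either. The prostate antigen gene KLK3 stood at 3708 ± 47.9 CPM (SD, n = 3) with the DMSO label, and neither KLK3 nor PCA3 had a read with the MI-503 label. HOXB13, a prostate homeobox factor, averaged 552 CPM under DMSO and had 1 read in all under MI-503. This applies to all 3 libraries labelled DMSO, so no value below can be given without them. An effect of MI-503 and this difference in markers cannot be told apart, and in bulk RNA fewer cells of a type and less RNA per cell cannot be told apart either. The groups are therefore named by their labels throughout, and "under DMSO" or "under MI-503" means in the libraries so labelled.

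Among the 34 genes, 30 were higher with the MI-503 label, a single gene was lower, and for 3 the test was not passed at an adjusted p of 0.05. Those higher made up 88.2% of the list, against 31.7% of all genes tested, and the single lower gene made up 2.94%, against 31.2% of all genes. In either direction, 62.9% of all genes passed. The genes were chosen with earlier results of these data known, so these shares carry no test. Past an additional log2 fold change of 2 in size, 22 of the 34 were higher (64.7%, against 12.6% of all genes) and 0 were lower (against 11.7% of all genes), since no fitted value lay below -1.08 at any p. DESeq2 gave 22 and 0 as well. PKIB was the 1 gene of the list that edgeR called lower, and DESeq2 also called 1 lower. The median log2 fold change over the list was 2.75, beside -0.00 over all genes, and single values ran from -1.08 for PKIB to 11.50 for OLFM1. Every library labelled MI-503 lay above every library labelled DMSO for 30 of the genes (34.7% of all genes did so), and below for 1 (34% of all genes). The low-count filter was passed in both groups by 26 of the genes, of which 22 were higher, 1 was lower and 3 missed the threshold. The other 8 (EGR3, KCNK6, OLFM1, PDZK1, PTGES, RERG, SUSD3 and TMPRSS3) passed it only through the MI-503 label. All of these were past a log2 fold change of 2, and their calls are not independent of the filter.

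**Figure D1:**
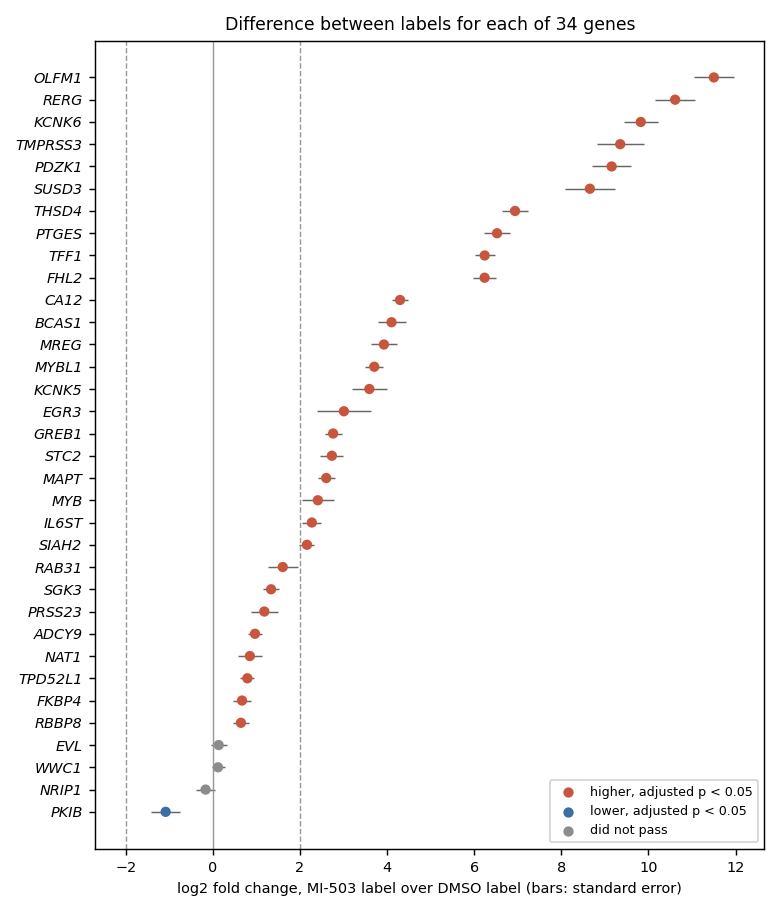
Log2 fold change of each of the 34 genes (x axis, MI-503 label over DMSO label, with bars for the approximate standard error), sorted by size, coloured by the call at an adjusted p of 0.05, with dashed lines at a log2 fold change of 2 in either direction. PKIB at -1.08 is the lowest, 3 grey points lie beside 0, and OLFM1 at 11.50 is the highest.

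Summed over the 34 genes, the level was 1342 to 1430 CPM in the libraries labelled DMSO and 5788 to 6242 CPM in those labelled MI-503. The makeup of that sum also differed. FKBP4 gave 29.1% to 45.9% of it with the DMSO label and 12.8% to 14.6% with the MI-503 label. CA12 gave 3.27% to 3.49% and then 13.5% to 17.3%. With the DMSO label 8 of the genes averaged under 1 CPM and 14 over 10 CPM, whereas with the MI-503 label 0 averaged under 1 CPM and 30 over 10 CPM. The plot of sorted fold changes shows that the differences were spread from small to very large values instead of being of 1 size.

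**Figure D2:**
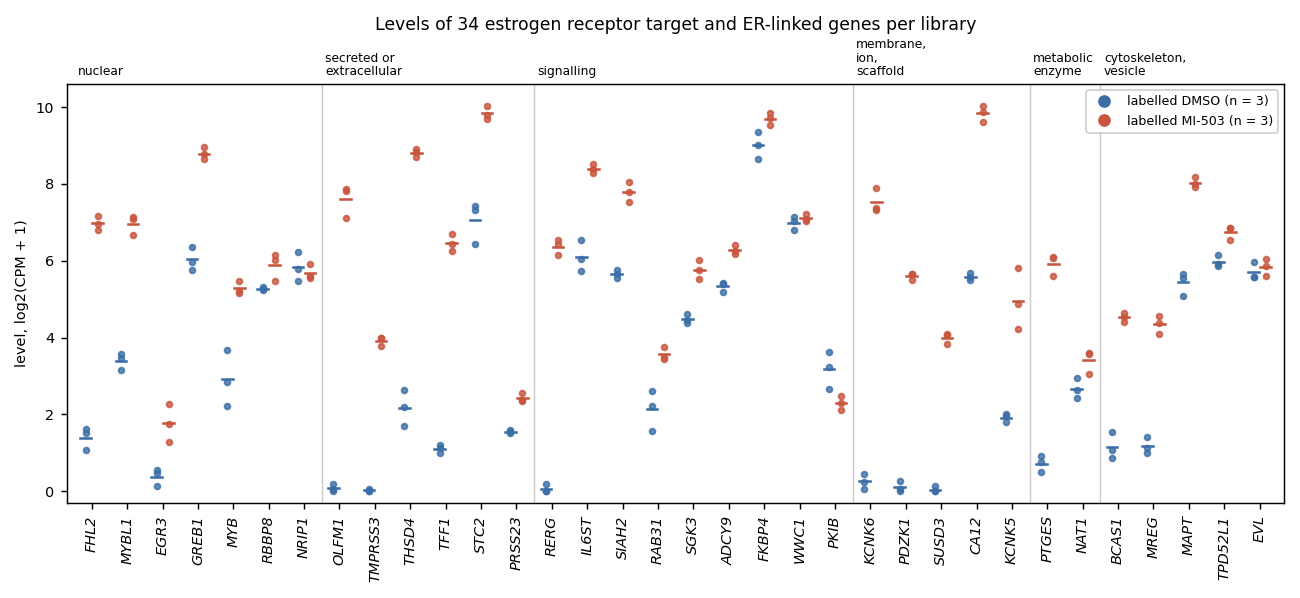
Level of each of the 34 genes in each of the 6 libraries (y axis, log2(CPM + 1)), with a bar at the mean of the 3 libraries of a label, by role group. The labels separate for all genes but NRIP1, WWC1 and EVL.

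Promoter letters are shown here for 5 of the genes, since they let a reader set the sequence just before the start of 3 genes with large differences (KCNK6, PDZK1 and THSD4) beside that of 2 that did not pass the test (NRIP1 and EVL). The stretches come from the RefSeq promoter table for GRCh38.p14, are written 5′ to 3′ on the strand of the gene, and end at or before the start. Capitals mark GGTCA or its reverse complement TGACC, a single arm of the estrogen response element, and GGGCGG or its reverse complement CCGCCC, the letters bound by Sp1. The stretches are chr19:38319595-38319844 on the plus strand for KCNK6, chr1:145707401-145707618 on the minus strand for PDZK1, chr15:71096644-71096893 on the plus strand for THSD4, chr21:15065001-15065250 on the minus strand for NRIP1 and chr14:99971172-99971421 on the plus strand for EVL.
KCNK6: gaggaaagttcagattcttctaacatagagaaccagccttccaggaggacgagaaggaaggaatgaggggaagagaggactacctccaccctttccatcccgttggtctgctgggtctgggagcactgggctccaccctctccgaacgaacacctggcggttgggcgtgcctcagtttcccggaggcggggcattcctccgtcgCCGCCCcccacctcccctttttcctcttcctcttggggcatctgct
PDZK1: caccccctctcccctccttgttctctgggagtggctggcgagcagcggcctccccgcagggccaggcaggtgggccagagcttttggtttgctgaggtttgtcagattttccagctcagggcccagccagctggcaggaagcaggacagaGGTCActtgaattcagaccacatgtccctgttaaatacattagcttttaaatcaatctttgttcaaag
THSD4: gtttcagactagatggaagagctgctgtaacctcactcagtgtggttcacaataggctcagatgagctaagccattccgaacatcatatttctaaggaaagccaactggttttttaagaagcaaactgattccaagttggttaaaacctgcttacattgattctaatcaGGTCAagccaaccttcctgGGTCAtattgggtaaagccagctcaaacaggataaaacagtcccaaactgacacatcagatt
NRIP1: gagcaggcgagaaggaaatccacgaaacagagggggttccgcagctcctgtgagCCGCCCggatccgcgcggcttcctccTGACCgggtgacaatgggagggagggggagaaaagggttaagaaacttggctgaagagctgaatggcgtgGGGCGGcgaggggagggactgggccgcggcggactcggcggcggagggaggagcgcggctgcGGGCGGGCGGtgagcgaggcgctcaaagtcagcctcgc
EVL: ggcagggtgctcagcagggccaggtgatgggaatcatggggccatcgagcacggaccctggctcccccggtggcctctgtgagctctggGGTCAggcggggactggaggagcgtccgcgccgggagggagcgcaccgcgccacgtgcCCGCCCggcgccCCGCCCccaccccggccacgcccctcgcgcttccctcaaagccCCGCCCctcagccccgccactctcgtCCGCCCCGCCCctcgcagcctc

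The THSD4 stretch held 2 arms and no Sp1 letters, PDZK1 held 1 arm, and KCNK6 held none and 1 Sp1 match. NRIP1 and EVL each held 1 arm, with 4 and 5 Sp1 matches. A promoter window of 300 bases, from 250 before to 50 after a start, was found for 23 of the 34 genes. Each gene gave a single window, the nearest to the start of its transcript with most reads. The table counts all windows, several for some genes, whether or not a gene was expressed, so the shares are of unlike sets. The genes without an entry were GREB1, TFF1, MYBL1, SGK3, EGR3, NAT1, ADCY9, FKBP4, RERG, MAPT and BCAS1. The full estrogen response element, that is both arms facing each other across a gap of 3 bases, was searched on both strands, as were all letters here, and was in 0 of the 23 windows and in 0.057% of 35116 windows in the table. The single arm GGTCA, which the full element contains, was in 10 of 23 (43.5%), against 37.4% of all windows. GGGCGG was in 18 of 23 (78.3%), against 45.0%. The forkhead letters TGTTTAC were in 1 window, that of MYB (4.35%, against 3.42% of all windows), TATAAA was in 0 (against 11.5%) and the inverted-repeat androgen response element was in 0 (1 window in the whole table). Among the 15 genes with a window that were past a log2 fold change of 2, the arm was in 7 and GGGCGG in 11, and among the other 8 they were in 3 and 7. The median GC content of the windows was 69% over the 23 genes and 58.7% over the table, with a median of 31 and 14 CpG dinucleotides. The windows of TMPRSS3, TPD52L1 and WWC1 lay 6903, 49393 and 79776 bases from the start of the transcript with most reads. These matches describe letters only, and receptor binding sites of this family often lie far outside such windows.

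The nuclear proteins comprised 7 genes, of which 6 were higher with the MI-503 label and 0 lower, with a median log2 fold change of 2.76. Over all genes tested 31.7% were higher and 31.2% lower, and EGR3 passed the low-count filter only through the MI-503 label. GREB1, a chromatin-bound cofactor of the estrogen receptor at chr2:11482341-11642788, averaged 65.5 ± 14.6 CPM (SD, n = 3) under DMSO and 444 ± 48.6 CPM under MI-503. This gave a log2 fold change of 2.76 (approximate standard error 0.20, edgeR adjusted p = 1.94e-06). FHL2, a LIM-domain coregulator of nuclear factors, went from 1.66 ± 0.51 to 125 ± 15.7 CPM, the largest log2 fold change of the group at 6.24. The related factors MYB and MYBL1, which drive proliferation genes, averaged 7.18 and 9.60 CPM under DMSO and 38.2 and 125 CPM under MI-503. EGR3, an immediate early factor, was the lowest of the group per transcript length in both labels, and averaged 0.310 ± 0.193 and 2.54 ± 1.21 CPM.

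RBBP8 encodes CtIP, which resects broken DNA ends, and it lies at chr18:22798261-23026488. It read 37.0, 38.5 and 37.4 CPM in the libraries labelled DMSO and 43.5, 69.5 and 63.5 CPM in those labelled MI-503. The groups did not overlap, and the first MI-503 library lay close to the DMSO libraries. The log2 fold change was 0.64 ± 0.19 (edgeR, adjusted p = 0.0143), and it did not pass once the effective length of its transcripts was taken into account (0.30, adjusted p = 0.209), without MI-503 replicate 2 (adjusted p = 0.0658) or by limma on TPM (0.17 and adjusted p = 0.43 with 1 added before the logarithm).

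For NRIP1, WWC1 and EVL the test was not passed, which does not show equal levels. NRIP1 encodes RIP140, a corepressor that the estrogen receptor induces and that binds the receptor in turn. It lies at chr21:14961235-15065936 and read 74.3, 54.0 and 43.0 CPM under DMSO and 46.1, 47.2 and 59.2 CPM under MI-503. The highest and the lowest of the 6 values both belonged to the DMSO label, so the groups overlapped. The log2 fold change was -0.17 ± 0.22 (adjusted p = 0.521, edgeR).

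The secreted and extracellular proteins comprised 6 genes, and all 6 were higher with the MI-503 label, with a median log2 fold change of 6.59. The share higher over all genes tested was 31.7%, and OLFM1 and TMPRSS3 passed the low-count filter only through the MI-503 label. TFF1, the trefoil peptide that is the textbook target of the receptor, lies at chr21:42362282-42366535. It averaged 1.16 ± 0.15 CPM under DMSO and 88.2 ± 13.9 CPM under MI-503 (log2 fold change 6.24 ± 0.23, adjusted p = 3.31e-08, edgeR). Per transcript length it was the second highest of the 34 genes with the MI-503 label, at 510 TPM (abundance scaled to transcript length and depth), and the 16th with the DMSO label, at 7.04 TPM. STC2, a secreted glycoprotein of calcium and phosphate balance, was the highest with the MI-503 label at 564 TPM, and averaged 139 ± 46.3 and 920 ± 120 CPM. THSD4, an extracellular matrix protein of fibrillin microfibrils, averaged 3.66 ± 1.49 and 449 ± 31.0 CPM.

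OLFM1, a secreted olfactomedin glycoprotein at chr9:135075422-135121180, had the largest fitted difference of the 34 genes. It read 0.0452, 0.145 and 0 CPM under DMSO and 138, 231 and 223 CPM under MI-503. That is 4 reads against 11005, with every MI-503 library far above every DMSO library. The log2 fold change was 11.50 ± 0.46 (adjusted p = 5.31e-08, edgeR), and it was 12.73 without DMSO replicate 2 and 6.59 by limma on log2(TPM + 1), where the added 1 shrinks the differences of low genes. Values this close to 0 fix a fold change only loosely, and more loosely than the ± value shows.

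TMPRSS3, a membrane-anchored serine protease, lies at chr21:42371887-42396091, 5352 bases from TFF1. It read 0, 0.0484 and 0 CPM under DMSO and 12.7, 14.9 and 14.9 CPM under MI-503. The 1 read against 795 gives a ratio of 911 (95% counting interval 163 to 36026, exact, counting error only). The fitted log2 fold change was 9.35 ± 0.54 (adjusted p = 4.63e-07, edgeR) with 11.15 without DMSO replicate 2 and 3.40 by limma on log2(TPM + 1). PRSS23, a secreted serine protease, had the smallest difference of the group, 1.93 ± 0.10 against 4.39 ± 0.42 CPM, and did not pass when tested by limma on TPM (adjusted p = 0.0669 with 0.1 added before the logarithm).

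The signalling proteins comprised 9 genes, of which 7 were higher, 1 was lower and 1 did not pass, with a median log2 fold change of 1.34. Over all genes tested 31.7% were higher and 31.2% lower, and RERG passed the low-count filter only through the MI-503 label. IL6ST, the shared signal-transducing receptor of the interleukin-6 cytokines, averaged 69.9 ± 20.5 and 337 ± 28.5 CPM (log2 fold change 2.27). SIAH2, a ubiquitin ligase, averaged 49.8 ± 3.69 and 222 ± 38.8 CPM (2.16). The serum- and glucocorticoid-regulated kinase SGK3 averaged 21.4 and 54.0 CPM, the vesicle GTPase RAB31 3.57 and 10.9 CPM, and the adenylate cyclase ADCY9 39.4 and 77.0 CPM, with log2 fold changes of 1.34, 1.60 and 0.97.

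RERG, a small GTPase of the Ras superfamily that restrains growth, lies at chr12:15107783-15348675. It read 0.136, 0 and 0 CPM under DMSO and 69.6, 91.6 and 85.2 CPM under MI-503. All the reads of the DMSO label, 3 in total, came from 1 library. The ratio to the 4614 reads of the MI-503 label was 1762, with a 95% counting interval of 603 to 8549. The fitted log2 fold change was 10.61 ± 0.46 (adjusted p = 8.11e-08, edgeR) with 13.67 without DMSO replicate 1 and 5.96 by limma on log2(TPM + 1).

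PKIB, an inhibitor of cAMP-dependent protein kinase, lies at chr6:122471917-122726373 and was the single gene called lower. It read 11.4, 8.42 and 5.29 CPM under DMSO and 3.90, 3.35 and 4.57 CPM under MI-503. The groups did not overlap, but the lowest DMSO library was close to the highest MI-503 library. The log2 fold change was -1.08 ± 0.33 (adjusted p = 0.0159, edgeR). The call was lost without DMSO replicate 1 (adjusted p = 0.0699) and without MI-503 replicate 2 (adjusted p = 0.066), which leaves 0 genes of the list called lower. In the same cAMP route, ADCY9, which makes the messenger, differed the other way.

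FKBP4 encodes FKBP52, a cochaperone of steroid receptors with HSP90, at chr12:2794970-2805423. It read 399, 511 and 656 CPM under DMSO and 742, 836 and 913 CPM under MI-503. The groups did not overlap and values spread widely within each. The log2 fold change was 0.67 ± 0.20 (adjusted p = 0.0146, edgeR), and the call was lost without MI-503 replicate 3 (adjusted p = 0.061).

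WWC1 encodes KIBRA, a scaffold upstream of the Hippo pathway, at chr5:168291645-168472303. It read 139, 111 and 131 CPM under DMSO and 131, 148 and 135 CPM under MI-503. The groups overlapped, and the log2 fold change was 0.12 ± 0.15 (adjusted p = 0.509, edgeR).

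The membrane, ion and scaffold proteins comprised 5 genes, and all 5 were higher by a log2 fold change of more than 2, with a median of 8.65. This held for 12.6% of all genes tested, and KCNK6, PDZK1 and SUSD3 passed the low-count filter only through the MI-503 label. CA12, a carbonic anhydrase of the plasma membrane, was the most abundant of the 5 in both labels per transcript length, at 14.5 and 285 TPM. It averaged 46.9 ± 3.03 and 922 ± 131 CPM (log2 fold change 4.30 ± 0.18, adjusted p = 7.42e-08, edgeR). KCNK5, a two-pore potassium channel, averaged 2.77 ± 0.28 and 33.5 ± 19.1 CPM, and its MI-503 libraries spread from 17.7 to 54.8 CPM.

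KCNK6, another potassium channel of that family, lies at chr19:38319845-38332076. It read 0.181, 0.0484 and 0.365 CPM under DMSO and 237, 159 and 166 CPM under MI-503. The log2 fold change was 9.82 ± 0.39 (adjusted p = 5.34e-08, edgeR), from 13 and 10692 reads, and it was 10.57 without DMSO replicate 3 and 5.40 by limma on log2(TPM + 1). The 2 channels thus differed in the same direction, but KCNK6 was nearly silent with the DMSO label and KCNK5 was not.

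PDZK1, a scaffold that holds transporters at the apical membrane, lies at chr1:145670852-145708148. It read 0, 0.194 and 0.0456 CPM under DMSO and 49.8, 49.0 and 44.1 CPM under MI-503. Its 5 reads against 2701 gave a log2 fold change of 9.15 ± 0.44 (adjusted p = 1.42e-07, edgeR), with 10.68 without DMSO replicate 2 and 5.33 by limma on log2(TPM + 1). The MI-503 libraries were close to one another. The annotated pseudogene PDZK1P1 on the same chromosome had 0 reads in each DMSO library and 4, 10 and 9 in the MI-503 libraries, and how reads shared with PDZK1 were split was not tested.

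SUSD3, a cell-surface protein with a sushi domain, lies at chr9:93058688-93085133. It read 0.0905, 0 and 0 CPM under DMSO and 13.1, 15.6 and 16.0 CPM under MI-503. The ratio of the 838 reads to the 2 reads was 480, with a 95% counting interval of 132 to 3971. The fitted log2 fold change was 8.65 ± 0.57 (adjusted p = 1.04e-06, edgeR) with 11.21 without DMSO replicate 1 and 4.27 by limma on log2(TPM + 1).

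Of the metabolic enzymes, PTGES, which makes prostaglandin E, averaged 0.653 ± 0.232 and 60.4 ± 11.5 CPM (log2 fold change 6.52 ± 0.30, adjusted p = 1.15e-07, edgeR). NAT1, an arylamine N-acetyltransferase, averaged 5.42 ± 1.19 and 9.78 ± 2.14 CPM (0.85 ± 0.28, adjusted p = 0.024). The call on NAT1 was lost in 4 of the 6 fits that left out a library, namely DMSO replicate 1, DMSO replicate 2, MI-503 replicate 2 and MI-503 replicate 3, with adjusted p between 0.07 and 0.0844.

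The cytoskeleton and vesicle proteins comprised 5 genes, of which 4 were higher, against 31.7% of all genes tested, and 1 did not pass. MAPT, the microtubule-binding protein tau, averaged 42.9 ± 8.70 and 260 ± 24.0 CPM (log2 fold change 2.60 ± 0.19). MREG, of melanosome transport, averaged 1.28 and 19.4 CPM, and BCAS1, first described as amplified in breast cancer, averaged 1.28 and 22.1 CPM, with log2 fold changes of 3.93 and 4.10. TPD52L1, a tumor protein D52 family member, differed less, from 62.1 to 108 CPM (0.79). EVL, an actin regulator of the Ena/VASP family at chr14:99971449-100144236, read 46.9, 46.7 and 61.8 CPM under DMSO and 65.2, 57.5 and 47.6 CPM under MI-503. The groups overlapped, and the log2 fold change was 0.13 ± 0.18 (adjusted p = 0.55, edgeR).

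Levels of different genes can be compared in TPM, which corrects for transcript length. With the DMSO label the order began with FKBP4 at 210 ± 47.4 TPM, TPD52L1 at 106 ± 23.0 TPM, STC2 at 77.3 ± 29.5 TPM and WWC1 at 50.1 ± 7.78 TPM, and the libraries of STC2 overlapped with those of TPD52L1 and of WWC1. With the MI-503 label it began with STC2 at 564 ± 106 TPM, TFF1 at 510 ± 53.1 TPM, FKBP4 at 325 ± 29.1 TPM and CA12 at 285 ± 42.8 TPM, and STC2 overlapped with TFF1, as FKBP4 did with CA12. The median over the 34 genes was 4.24 TPM with the DMSO label and 41.2 TPM with the MI-503 label. EGR3 was the lowest with the MI-503 label, at 0.999 TPM.

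**Figure D3:**
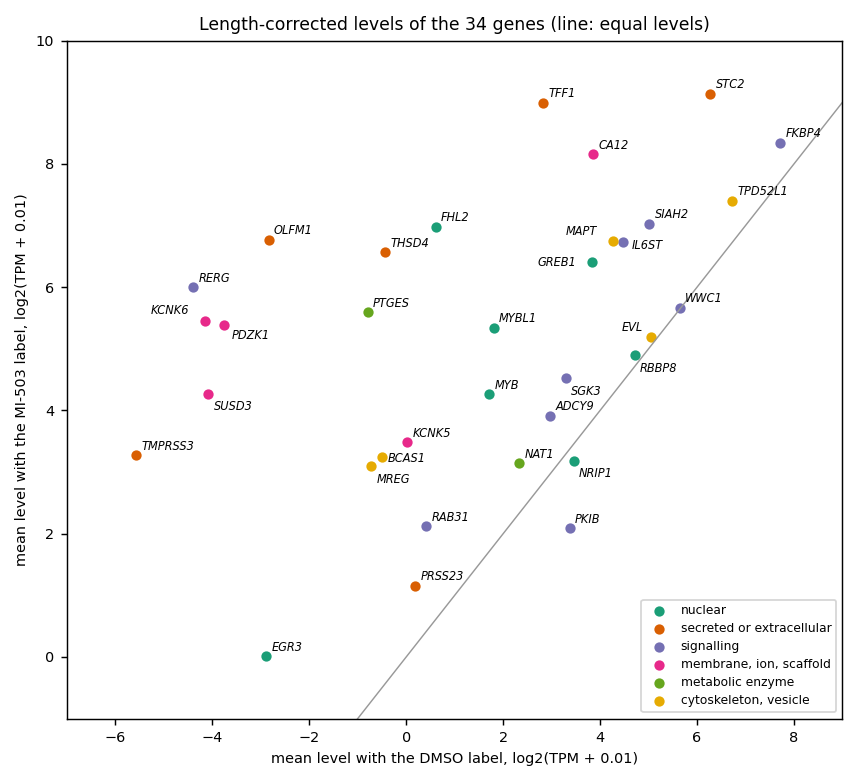
Mean level of each of the 34 genes with the DMSO label (x axis) and with the MI-503 label (y axis), both as log2(TPM + 0.01), coloured by role group, with the line of equal levels. NRIP1, WWC1, EVL and RBBP8 lie near the line, PKIB below it, and OLFM1, RERG, KCNK6, PDZK1, SUSD3 and TMPRSS3 far above it at the left edge.

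The plot of TPM levels separates genes that were already expressed with the DMSO label, such as FKBP4 and WWC1, from those that had almost no reads there. Over genes of the list above 10 CPM the median coefficient of variation was 14.0% with the DMSO label and 12.9% with the MI-503 label, beside 15.3% and 12.0% over all genes tested.

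The share of reads that salmon assigned to single transcripts was compared without a test, since it rests on the model that splits shared reads. For SGK3 the transcript ENST00000396596 took 0% to 7.79% of the reads with the DMSO label and 48.6% to 60.8% with the MI-503 label, and ENST00000521198 took 57.6% to 94.9% and 0% to 46.2%. For CA12, ENST00000178638 took 70.3% to 74.4% and 62.8% to 66.2%. Both labels gave most IL6ST reads to ENST00000651614, annotated as a nonsense-mediated decay transcript, at 94.2% to 95.4% and 81.6% to 90.8%. The readthrough gene C8orf44-SGK3 had 11 reads in 1 DMSO library, 8 in 1 MI-503 library and 0 in the others.

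The genes lay on 17 chromosomes, and 2 pairs lay within 100000 bases of each other. Beside TFF1 and TMPRSS3 on chromosome 21, the trefoil gene TFF3 averaged 2.67 and 295 CPM (log2 fold change 6.79), whereas TFF2 and UBASH3A had no reads in any library. MYBL1 and SGK3 lay 98487 bases apart on chromosome 8. VCPIP1 between them was higher (26.4 and 45.8 CPM, 0.79) and MCMDC2 beside them was lower with the MI-503 label (11.5 and 0.598 CPM, -4.24). VXN, on the MYBL1 side, was also higher, at levels near 0 (0.0614 and 0.757 CPM, 3.49). These neighbours were chosen after their values were seen. EVL shares its region with DEGS2 on the opposite strand, which had 17 to 29 reads per library with the DMSO label and 2523 to 4328 with the MI-503 label. Whether the counting used strand is not given in the sources used here, so their reads may not be fully separable, and the same holds for PRSS23 with FZD4, TPD52L1 with HDDC2 and THSD4 with the pseudogene HMGB1P6. Under DMSO, HMGB1P6 had 1987 to 2425 reads per library and THSD4 49 to 115, and HDDC2 had 963 to 1164 and TPD52L1 1182 to 1538. FZD4 had 351 to 481 reads under DMSO and 815 to 894 under MI-503, and PRSS23 38 to 45 and 69 to 93. On the same strand, MREG overlaps PECR, which had 397 to 549 and 268 to 445 reads. NRIP1 overlaps an unnamed long noncoding RNA gene with 27 to 60 and 93 to 215 reads.

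The receptor and its cofactors formed a list of 20 genes, with 7 higher, 8 lower and 5 short of the threshold, and a median log2 fold change of -0.07. The shares of 35% higher and 40% lower were near those of all genes tested, 31.7% and 31.2%. ESR1, ESR2 and GATA3 passed the low-count filter only through the MI-503 label, and GPER1 only through the DMSO label. ESR1 read 0, 0.194 and 0 CPM under DMSO and 210, 240 and 296 CPM under MI-503 (11.83 ± 0.49, adjusted p = 6.17e-08, edgeR). ESR2, the second estrogen receptor, stayed low in both, at 0.172 ± 0.110 and 0.716 ± 0.159 CPM, a log2 fold change of 2.04 ± 0.60 (adjusted p = 0.0131). GATA3 averaged 0.194 and 1428 CPM (12.86). FOXA1, the pioneer factor that both breast and prostate cells use, averaged 474 ± 101 and 472 ± 89.5 CPM (-0.01 ± 0.21, adjusted p = 0.98). Of the cofactors, the coactivator NCOA3 and the receptor partner TFAP2C were higher (2.40 and 1.72), while the corepressors PHB2 and NCOR1 were lower (-2.40 and -1.80), as was the membrane estrogen receptor GPER1 (-5.58).

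Another list of 30 estrogen-responsive genes had 25 higher, 3 lower and 2 that did not pass, with a median log2 fold change of 2.99. The shares were 83.3% higher and 10% lower, beside 31.7% and 31.2% of all genes tested. PGR, CXCL12, IGFBP4, AGR3, RET, AREG, CCN5, P2RY2 and SERPINA1 passed the low-count filter only through the MI-503 label. ELOVL2 passed it only through the DMSO label, and the calls on these genes are not independent of the filter. PGR, the progesterone receptor, averaged 0.328 ± 0.253 and 1386 ± 132 CPM (12.03 ± 0.44, adjusted p = 3.38e-08, edgeR). AGR3, a secreted disulfide isomerase, had 1 read against 5255 (ratio 6022, 95% counting interval 1080 to 237883). SERPINA1, a protease inhibitor, averaged 0.607 and 306 CPM (8.97), and KRT19, a luminal keratin, 25.5 and 3100 CPM (6.93). P2RY2, a purinergic receptor, averaged 0.184 and 62.5 CPM (8.35). The 3 lower genes were the fatty acid elongase ELOVL2 (-2.76), the antiapoptotic BCL2 (-2.02) and the zinc transporter SLC39A6 (-0.95), and CCND1 and CELSR2 did not pass (adjusted p = 0.112 and 0.365). The lists of the receptor genes and the responsive genes were chosen with results known, and their counts carry no test of their own.

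**Figure D4:**
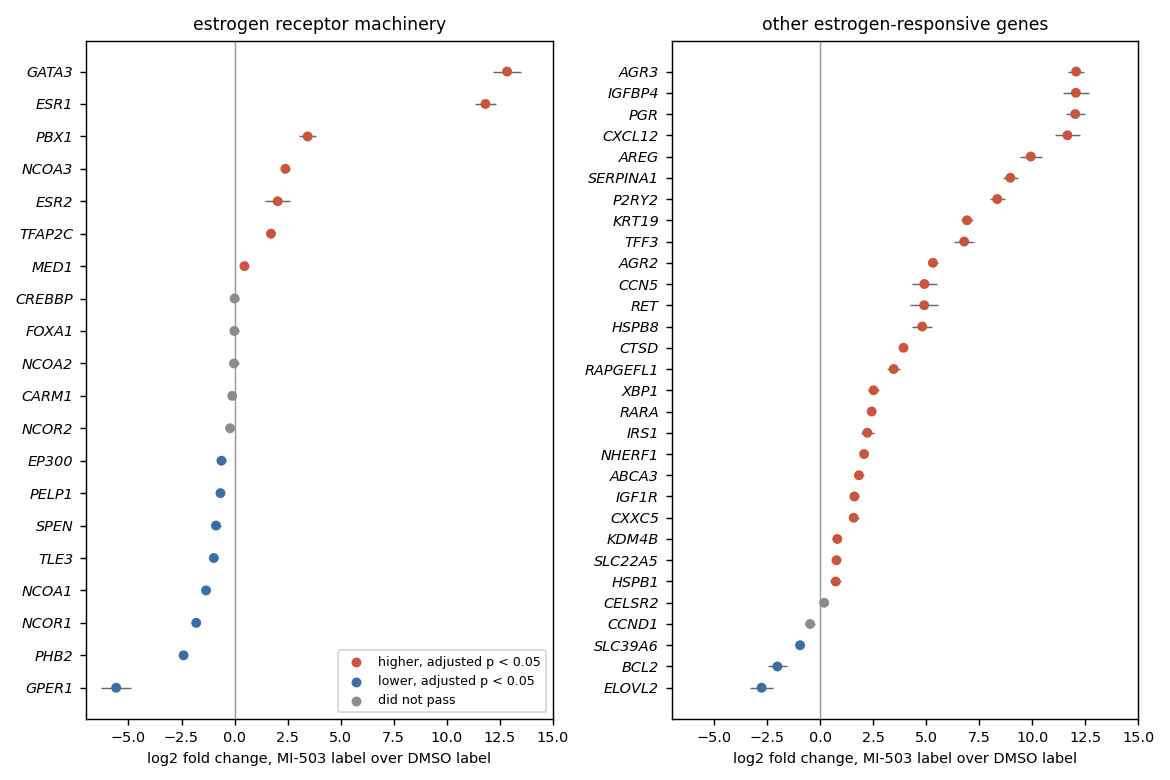
Log2 fold change (x axis, MI-503 label over DMSO label, bars for the approximate standard error) of the 20 genes of the receptor and its cofactors (left) and of the 30 other estrogen-responsive genes (right), sorted by size and coloured by the call at an adjusted p of 0.05. The left list lies on both sides of 0, from GPER1 at -5.58 to GATA3 at 12.86, and the right list runs from ELOVL2 at -2.76 to AGR3 at 12.07.

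The plot of both lists shows single genes of either list on both sides of 0. Libraries held 17404736 to 22168525 reads each, and mitochondrial transcripts took 1.38% to 7.18% of them in a way that did not follow the labels. The scaling factors did follow the labels, at 1.029 to 1.053 with the DMSO label and 0.934 to 0.976 with the MI-503 label.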

How the data were processed

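RNA from cells labelled T47D was sequenced in 6 libraries, 3 labelled DMSO and 3 labelled MI-503, described in the methods as independent experiments. The authors quantified transcripts with salmon (through Illumina DRAGEN) against GRCh38.p13 (hg38), and the deposited tables give estimated counts and TPM per transcript. Neither the salmon version nor the annotation release nor the use of strand was given in the sources used here. Of 232117 transcripts, 229321 (98.8%) matched GENCODE 44 once version suffixes were removed. Their estimated counts were summed per gene and rounded to whole numbers, and deposited TPM values were summed per gene. Depth was 17404736 to 22168525 reads. Intervals cover counting error only. Standard errors of log2 fold changes, also those given after ±, are approximate. Each is the size of the fold change divided by the square root of the test's F statistic. For genes with a few reads in a group they can be smaller than counting error alone.

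Genes passing filterByExpr (16442 of 61279) were tested with edgeR 4.0.16 in R 4.3.3 (quasi-likelihood test, TMM scaling) and p-values were adjusted by Benjamini-Hochberg over all of them. The procedure was tested on simulated data. Thresholds were an adjusted p of 0.05 and, as in the methods, a log2 fold change of 2. Alternatives used DESeq2 1.42.0, limma 3.58.1 on log2(TPM + 0.1) and log2(TPM + 1) for genes above 1 TPM, other scalings and filters, an effective length offset, added readthrough reads, a replicate block and each library left out. CPM values are scaled by TMM.

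All 34 genes are named. Every library is given for the 6 with the largest rise, the 6 lowest by fitted log2 fold change and those that missed the threshold. From the other lists ESR1, ESR2, PGR, FOXA1 and GATA3 are named, with those of smallest adjusted p as well as GPER1 and genes of the opposite direction, the latter chosen after their values were seen. The genes, lists and motifs were chosen with earlier results of these data known. Promoter windows came from RefSeq (GRCh38.p14). The main fit did not pair libraries by replicate number.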

Additional observations from a re-analysis of the deposited data

How the results depend on the processing

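Over 16 alternatives, 528 of 542 values for single genes of the list kept their direction and their side of the threshold, 13 lost the call and 1 reversed. The reversal was NRIP1, which did not pass in any fit, at a log2 fold change of 0.067 without DMSO replicate 1 (adjusted p = 0.775) and of -0.34 without DMSO replicate 3. Limma on log2(TPM + 1) gave 1113 genes higher and 890 lower past a log2 fold change of 2, beside 2065 and 1930 in edgeR, and a median of 2.48 over the list. Adding 1 to each TPM shrinks differences of low genes by construction. With each library left out in turn, 28 to 30 genes of the list were higher, 0 to 1 lower, and the median was 2.64 to 2.93. It was 0 lower without DMSO replicate 1 and without MI-503 replicate 2. With the replicate number as a block, 30 were higher and 1 lower, with a median of 2.78 and no call on a gene of the list changed. Deviations of libraries with the same number correlated at -0.06, 0.13 and -0.08, and not every library correlated best with its own number. So few libraries cannot exclude that equal numbers mark matched experiments. EGR3 was below the TPM filter and had no value in either limma fit. RBBP8 lost its call under the length offset (adjusted p = 0.209) and in both limma fits, and PRSS23 in both limma fits. Scaling by the upper quartile shifted the median of all genes by -0.10, and no gene of the list turned direction under another scaling. With 3 libraries a group, differences near a log2 fold change of 1 are the least certain, and levels of a few reads limit the folds of the silent genes.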
